A study of Caenorhabditis elegans with 4 samples.

Results

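RNA polymerase II transcribes protein-coding genes and many small RNA genes. Between the regions where chromatin immunoprecipitation and sequencing (ChIP-seq) finds it, the genome can hold long intervals with no called peak. The intervals described here are those longer than 50 kb in early embryos of Caenorhabditis elegans. They were found by merging the peaks of both immunoprecipitated samples on each of the 6 nuclear chromosomes and taking every interval over 50 kb between neighbouring merged peaks. Of 5813 intervals between merged peaks, 389 were that long. These were 6.69% of the intervals, a share that the length threshold sets. The members were chosen by the peak positions of the replicate lists, so their number, length and place are a description with no test.

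The study used the wild-type strain N2, a mixed population of males and hermaphrodites kept at 20 °C, with embryos prepared by bleaching gravid adults and crosslinked whole. It holds 2 samples precipitated with 8WG16 (replicates 1 and 2) and 2 samples of input DNA, which have no list of their own here. 8WG16 is a monoclonal antibody from mouse. It recognises primarily the C-terminal repeats of the polymerase when they carry no phosphate, as in the enzyme that assembles at promoters. All cells of the embryo were pooled, so a stretch without peaks can still hold genes that are transcribed in few cells.

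The peak lists hold 4343 peaks in replicate 1 and 5585 in replicate 2, which merged into 5819. A further list for the whole series holds 18427 shorter nuclear peaks. It carries the title of the series and is not independent of the replicate lists. The lists carry no read counts, so the sequencing depth is unknown, and whether separate embryo preparations were used for the replicates is not stated in the labels. An interval without a peak is not shown to lack polymerase, and how well reads can be placed in these intervals was not tested. Coordinates refer to WormBase WS220. Neither genes nor sequences are given, since the annotation used would have been of a different build (WBcel235).

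The autosomes of this worm have centres rich in conserved and widely expressed genes, and outer arms with more recombination, more repeats and more members of large, fast-evolving gene families. Chromosome V carries many chemoreceptor genes, which act mainly in differentiated neurons. The X chromosome lacks the marked division into centre and arms and is dosage compensated in hermaphrodites. In the early embryo the zygotic genome is being switched on, and genes of differentiated tissues are largely silent.

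The 389 stretches covered 32.5 Mb of the 100.3 Mb genome, or 32.5%. They held 41.2% of the bases lying between merged peaks. Their median length was 71.7 kb, with an interquartile range of 58.3 to 93.9 kb, against a median of 3.62 kb over all intervals. The long intervals thus stand in a genome where neighbouring peaks are mostly a few kilobases apart. The shortest was 50.1 kb and the longest 302 kb. Lengths over 100 kb were reached by 82 stretches with 11.6 Mb in all, over 150 kb by 25, and over 200 kb by 9.

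At the threshold the lengths ran on without a break. The 3 shortest stretches measured 50062 bp on chromosome V, from 3451276 to 3501337, 50241 bp on chromosome IV, from 5211181 to 5261421, and 50338 bp on chromosome V, from 8248442 to 8298779. The 3 longest intervals left out measured 49994 bp on chromosome I, from 660703 to 710696, 49871 bp on chromosome IV, from 1234508 to 1284378, and 49832 bp on chromosome II, from 2248413 to 2298244. The 3 stretches just above the threshold held no peak of the series-wide list. Of all stretches of 50 to 75 kb, 97 of 213 (45.5%) held none.

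Chromosome V held the most stretches and the largest part of their length, followed by X and IV. There were 114 on V, 83 on X, 74 on IV, 51 on II, 36 on I and 31 on III. Per Mb of chromosome this came to 5.45 on V, 4.68 on X, 4.23 on IV, 3.34 on II, 2.39 on I and 2.25 on III. As a share of the chromosome, the stretches took 51.5% of V, 38.0% of X, 34.5% of IV, 25.7% of II, 18.1% of I and 17.1% of III. More than 50% of chromosome V therefore lay in stretches over 50 kb without a replicate peak.

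V and X together held 197 of the 389 stretches (50.6%, exact 95% binomial interval 45.6 to 55.7%) and 53.8% of their bases, while they made up 38.5% of the genome. Such intervals cover counting error only, and stretches on 1 chromosome are not independent. Without replicate 2, the share on V and X was 45.5%. Peaks also lay farther apart on V and X in general, with a median over all intervals of 6.08 kb on V and 7.42 kb on X, against 2.58 to 3.77 kb on the other 4 chromosomes. Of the intervals on V 13.9% passed 50 kb, and of those on X 10.2%, against 7.42% on IV, 5.30% on II, 3.03% on III and 2.99% on I.

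**Figure D1:**
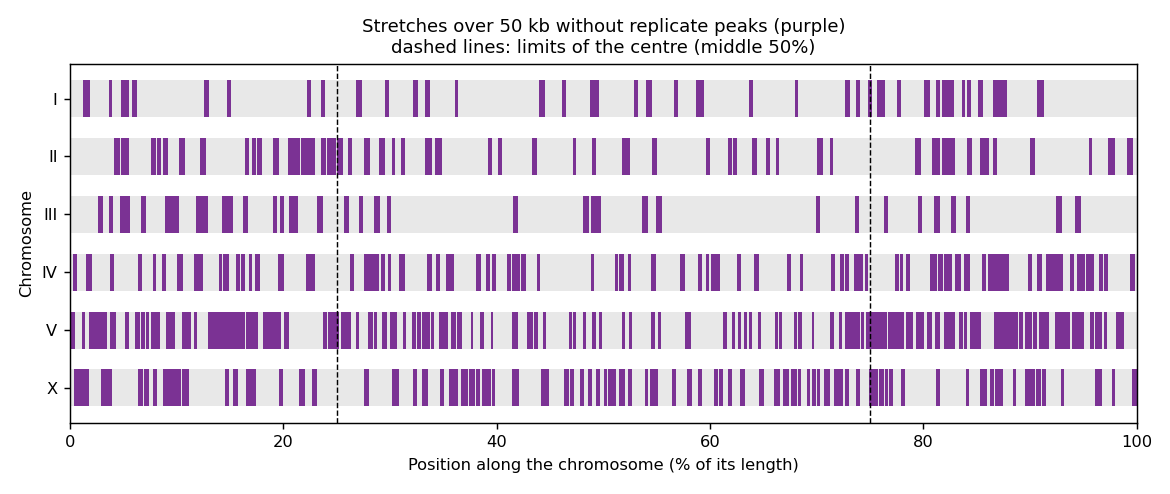
Place of the 389 stretches (purple) along each nuclear chromosome, given as percent of the chromosome's length, with dashed lines at 25% and 75%. The stretches crowd towards both ends of V, are spread along X, and leave wide parts of III and I free.

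By number, the stretches were shared about evenly between the centres (the middle 50% of each chromosome) and the outer parts (the first and last 25%). By midpoint, 201 lay in the outer parts (51.7%, exact 95% interval 46.6 to 56.7%) and 188 in the centres (48.3%, 43.3 to 53.4%). The share of intervals past 50 kb was 7.26% in the outer parts and 6.18% in the centres. Length divided them more than number did. Stretches of the outer parts had a median of 79.0 kb and those of the centres 66.4 kb, and the outer parts held 58 of the 82 over 100 kb, against 24 in the centres. The outer parts thus held 18.7 Mb of the stretches' bases (57.5%) and the centres 13.8 Mb (42.5%).

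Chromosome V had the widest gap in percentage points of bases. There 61 stretches lay in the outer parts, with a median of 86.4 kb, and 53 in the centre, with a median of 69.4 kb. They took 61.1% of the left outer part and 68.8% of the right, against 38.1% of the centre. Of its 30 stretches over 100 kb, 23 lay in the outer parts and 7 in the centre. Just right of the middle of V, between 50% and 60% of its length, stretches took 18.5% of the bases. They took 72.9% between 10% and 20% of its length and 71.3% between 70% and 80%.

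On the X chromosome the order was the other way round by number and by bases. The outer parts of X held 36 stretches and its centre 47, and the percentage of bases was 36.6% in the left outer part, 33.6% in the right and 40.9% in the centre. Its stretches over 100 kb were also more often central, with 6 in the outer parts and 10 in the centre. The median length on X was nonetheless 79.7 kb in the outer parts together and 67.1 kb in the centre. That is the order of the other chromosomes too. By side, however, the median was 84.5 kb in the left outer part of X and 64.1 kb in the right, below its centre.

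The other autosomes differed in which outer part was emptier. On chromosome III the left outer part had 33.3% of its bases in stretches and the right 13.3%, against 10.9% of the centre. On II the left also exceeded the right, with 36.2% and 24.5%, against 21.0% of the centre. On IV and I the right outer part was the emptier one. Stretches took 46.5% of the right outer part of IV, 29.6% of the left and 30.9% of the centre. On I the values were 25.8% on the right, 15.8% on the left and 15.3% in the centre. Within the right outer part of I, they were 44.6% between 80% and 90% of its length and 6.86% between 90% and 100%. Chromosome III had no central stretch over 100 kb, and all 5 of its stretches of that length lay in its outer parts.

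**Figure D2:**
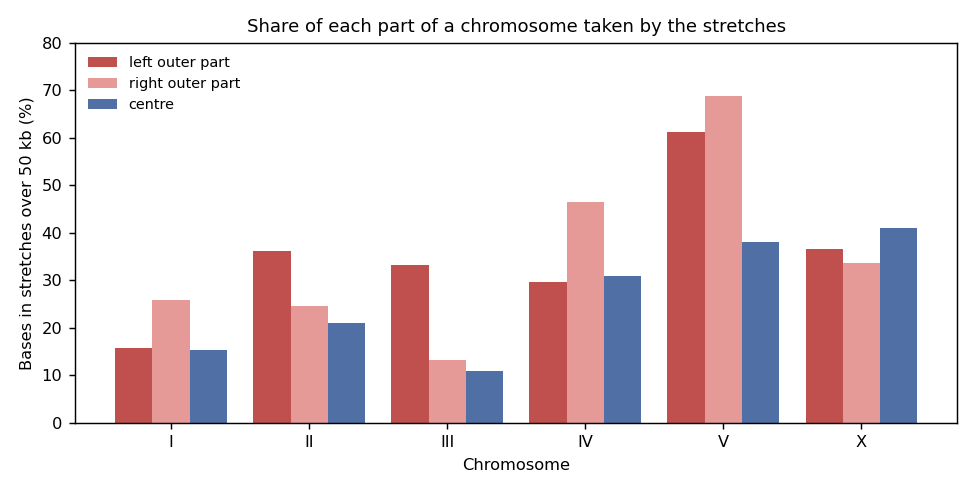
Percent of the bases of the left outer part, right outer part and centre of each chromosome that lay in stretches over 50 kb (bars start at 0). Both outer parts of V exceed 60%, and X is the 1 chromosome whose centre stands above both outer parts.

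**Figure D3:**
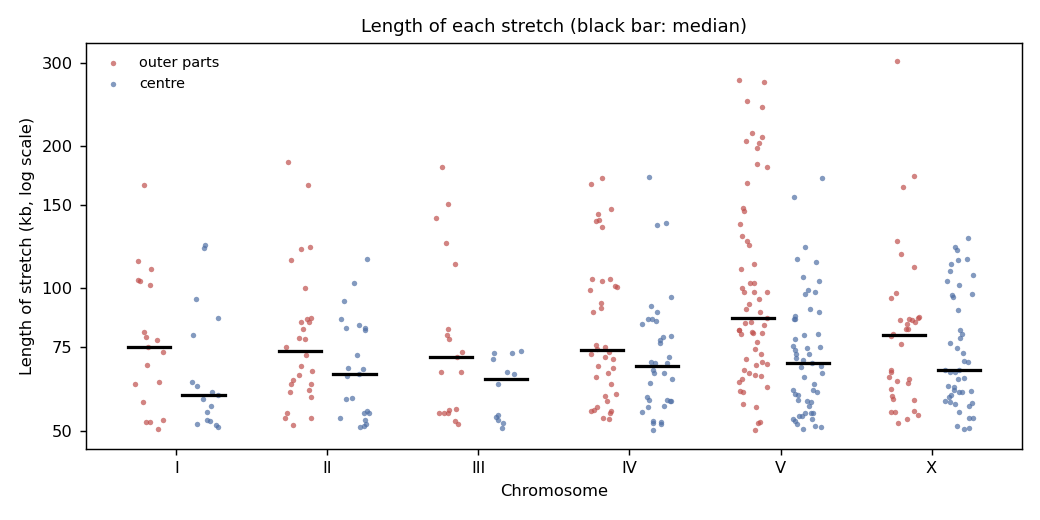
Length in kb, on a log scale, of each stretch in the outer parts (red) and the centre (blue) of each chromosome, with the median as a black bar. The median is higher in the outer parts on each of the 6 chromosomes, and 8 of the 9 stretches over 200 kb lie in the outer parts of V.

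At the scale of 1 Mb, 18 of 97 complete bins had more than 50% of their bases in stretches. Of these, 12 were on V, 3 on X, 2 on IV and 1 on II, and none was on I or III. The emptiest bin was at 3 to 4 Mb on V, where stretches took 87.6%. It was followed by the bins at 15 to 16 Mb on V with 79.6%, at 18 to 19 Mb on V with 75.8% and at 16 to 17 Mb on V with 74.5%. On II the bin at 3 to 4 Mb reached 65.2%. Only 3 bins had no base in a stretch: 14 to 15 Mb on I, 11 to 12 Mb on II and 8 to 9 Mb on III.

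The 10 longest stretches lay on X and V, each in an outer part. The longest ran on X from 1543142 to 1845576 and measured 302 kb. Its left end was set by an 841 bp peak of replicate 1 alone and its right end by an 11509 bp domain found in both replicates. In replicate 2 alone the same interval was 320 kb long. It held 9 series-wide peaks over 1.14% of its bases, and the longest piece free of them was 93.3 kb, so this stretch had short peaks spread along it.

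The second longest was of another kind. It ran on V from 364613 to 639885, measured 275 kb and held no series-wide peak. A 2081 bp peak of both replicates closed it on the left and a 1035 bp peak of replicate 2 alone on the right. In replicate 1 alone the interval ran on to 358 kb.

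Near the right end of V, 6 more of the 10 longest followed within less than 3 Mb. The third longest, from 18321128 to 18594330, measured 273 kb and shared its left bounding peak with the ninth, from 18115387 to 18318289, which measured 203 kb. The fourth, from 19644961 to 19893962, measured 249 kb. The sixth, from 17134050 to 17347649, measured 214 kb and was closed on the left by a 16669 bp domain of replicate 1 alone. Without that domain, in replicate 2 alone, it measured 273 kb. The seventh ran from 17649919 to 17858692 (209 kb), between a 1528 bp and a 1122 bp peak of replicate 2 alone. The eighth ran from 19314025 to 19518915 (205 kb), between peaks of both replicates. These 6 stretches held 2 to 7 series-wide peaks each.

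The left end of V held the remaining members of the 10 longest. The fifth ran from 2876120 to 3117486 and measured 241 kb. Both peaks that closed it, of 1029 bp and 1602 bp, were in replicate 2 alone, and in replicate 1 alone the interval around it reached 482 kb, the longest of that list. The tenth ran from 3781487 to 3979688 and measured 198 kb, between peaks of both replicates of 9862 bp and 1858 bp. The extent of the tenth differed little between the lists, with 198 kb in replicate 1 and 202 kb in replicate 2.

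On the other chromosomes the longest stretches were of 165 to 185 kb. On II it ran from 12485104 to 12670295 (185 kb), and on I from 12325447 to 12490581 (165 kb). On IV it lay in the centre, from 4890998 to 5062720 (172 kb). These 3 were bounded on both sides by peaks of both replicates, and their length in either replicate alone was within 1 kb of the merged one. On III it ran from 1224581 to 1405552 (181 kb), between peaks of replicate 2 alone, and measured 192 kb in replicate 1.

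Each replicate alone gave more such intervals, since fewer peaks divide the genome. Replicate 1 alone had 534 intervals over 50 kb, with 48.8 Mb and a longest of 482 kb, and replicate 2 alone had 420, with 36.0 Mb and a longest of 320 kb. The long intervals of the replicates had 33.0 Mb in common, or 67.6% of the bases in those of replicate 1 and 91.8% in those of replicate 2. In replicate 1, 175 of its 534 long intervals held no stretch over 50 kb once the peaks of replicate 2 were added. In replicate 2, 36 of its 420 held none once replicate 1 was added.

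Stretches kept their extent in replicate 2 alone more often than in replicate 1 alone. In replicate 2 alone, 345 of the 389 (88.7%) were at most 10% longer than in the merged list, and in replicate 1 alone 226 (58.1%) were. Both held for 195 stretches (50.1%). Stretches more than 1.5 times as long numbered 85 in replicate 1 alone and 23 in replicate 2 alone. On IV, 1 stretch, from 52147 to 109933, was open to the chromosome end in replicate 1, which had no peak to its left. Replicate 2 lists more peaks, which goes with these differences, and the part of its larger list was not tested.

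The stretches were bounded by 727 merged peaks, because 51 peaks bounded a stretch on both sides. The bounding peaks were of common width and make. Their median width was 2257 bp (interquartile range 1396 to 4816 bp), against 2216 bp (1386 to 4369 bp) for the 5092 other merged peaks. Domains wider than 10 kb made up 7.43% of the bounding peaks and 6.11% of the others. Of the bounding peaks 57.4% were in both replicates (exact 95% interval 53.7 to 61.0%), 8.39% in replicate 1 alone and 34.3% in replicate 2 alone. Among the others 54.1% were in both (52.7 to 55.5%), 8.44% in replicate 1 alone and 37.5% in replicate 2 alone. Taken over all chromosomes together, the long intervals thus ended at peaks whose replicate make-up was near that of merged peaks in general. The differences were not tested.

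Bounding peaks in both replicates were wider than those in 1. Their median was 3896 bp, against 1652 bp in replicate 1 alone and 1384 bp in replicate 2 alone. A merged peak in both replicates spans the overlapping peaks of both lists, so the merging itself favours this order. Among the other merged peaks the medians were 3562 bp, 1564 bp and 1432 bp in the same order, so this division is not particular to the edges of stretches. The series-wide list met 698 of the 727 bounding peaks (96.0%) and 94.4% of the others. Of the 29 that it did not meet, 28 were in replicate 2 alone and 1 in replicate 1 alone. Among the other merged peaks, 268 of the 285 not met were likewise in replicate 2 alone.

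Both ends were set by peaks of both replicates in 124 stretches (31.9%). At 156 stretches (40.1%) 1 end was a peak of both and the other a peak of replicate 2 alone, and at 40 (10.3%) the other was a peak of replicate 1 alone. Both ends were in replicate 2 alone at 45 stretches (11.6%) and in replicate 1 alone at 1. In the remaining 23 (5.91%), each replicate alone gave 1 end. In 265 stretches (68.1%) at least 1 end therefore rested on a peak listed in a single replicate. Of all 5819 merged peaks only 54.5% were in both replicates, so such ends are not particular to the stretches. The same share over all intervals was not computed.

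By chromosome, bounding peaks on X and V were in both replicates least often. The share was 51.9% of 154 on X and 52.5% of 200 on V, and 57.4 to 66.2% on the other 4 chromosomes. Among the other merged peaks it was 41.1% on X, 54.4% on V and 54.3 to 57.9% elsewhere. Bounding peaks stood above the others by most on X and on IV (66.2% against 55.6%), and by less on I and II. On V and on III (57.4% against 57.7%) they stood slightly below. These differences were not tested either.

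**Figure D4:**
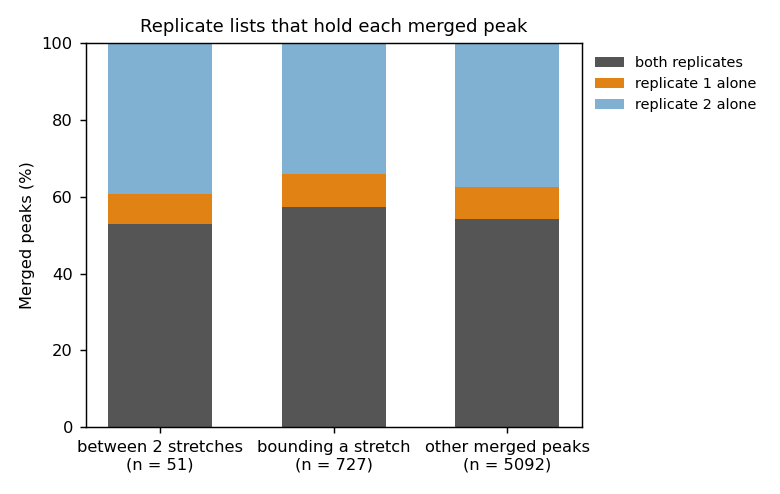
Percent of merged peaks found in both replicates, in replicate 1 alone or in replicate 2 alone, for the 51 peaks lying between 2 stretches, the 727 peaks bounding a stretch (the 51 included) and the 5092 other merged peaks. Peaks in both replicates make up 52.9%, 57.4% and 54.1% of the 3 groups.

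Some stretches lay next to each other, most of them on V and X. A single merged peak separated neighbouring stretches in 51 cases, so that 91 of the 389 (23.4%) shared a bounding peak with another and 298 did not. In replicate 1 alone, 155 of 534 long intervals shared such a peak, and in replicate 2 alone 108 of 420. The interval directly to the right of a stretch was itself a stretch in 13.2% of 387 cases, against 6.69% over all intervals. By chromosome it was 24.6% on V (13.9% of all intervals there), 14.6% on X (10.2%), 8.22% on IV (7.42%), 5.88% on II (5.30%), 3.23% on III (3.03%) and 2.78% on I (2.99%). On V and X the share after a stretch was above the chromosome's own, and on the other 4 it was near it. These differences were not tested.

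The intervals on the far side of the bounding peaks had a median of 5.30 kb (interquartile range 1.11 to 24.6 kb), against 3.62 kb (0.879 to 16.1 kb) over all intervals. Of these 774 intervals, 457 were under 10 kb, against 3852 of all 5813 (66.3%). Consecutive stretches on a chromosome lay a median of 89.9 kb apart, with a median of 7 merged peaks between them. At the other extreme, 88 of 383 consecutive pairs had more than 20 merged peaks between them, and the greatest distance was 1990 kb.

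The adjoining stretches formed 40 runs: 31 of 2 stretches, 7 of 3, and 2 of 4. V held 19 of the runs, X 11, IV 5, II 3, and I and III 1 each. The run with the greatest span among those of 3 or more lay on V from 2708109 to 3190123. In these 482 kb there were 2 peaks of replicate 2 alone, 1029 bp and 1602 bp wide, and 99.5% of the bases lay outside them. Its 3 stretches measured 167 kb, 241 kb and 71.0 kb. Replicate 1 had no peak in it at all.

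A run of 4 stretches lay on V from 15611041 to 16022535, with lengths of 90.4, 56.9, 113 and 148 kb. The peaks between them were 1073 bp (replicate 1 alone), 1252 bp and 963 bp (both replicate 2 alone) wide, and 99.2% of the 411 kb lay outside them. None of these 3 peaks was found in both replicates, and each met a series-wide peak.

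The other run of 4 lay to its left, from 15191866 to 15497454 over 306 kb. Its dividing peaks measured 1743 bp (replicate 2 alone), 1065 bp (replicate 1 alone) and 6814 bp (both replicates). A run of 3 followed on the right from 16044447 to 16355483 over 311 kb, divided by peaks of 2257 bp and 1452 bp that were in both replicates. These 3 runs lie in the megabases at 15 to 16 Mb and 16 to 17 Mb on V, which are among the emptiest bins given above.

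Further runs of 3 on V ran from 3781487 to 4131374 (350 kb), from 3451276 to 3688325 (237 kb) and from 5053065 to 5268905 (216 kb). Chromosome IV had 1, from 16007467 to 16276150 (269 kb), and X had 1, from 11970449 to 12148170 (178 kb). The X run was divided by a 1266 bp peak of replicate 2 alone and by a 12001 bp domain of both replicates that met 12 series-wide peaks. Broad and narrow dividers thus occurred in the same run.

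The 51 dividing peaks had a median width of 1818 bp (interquartile range 1129 to 4552 bp), somewhat under the 2216 bp of merged peaks that bounded no stretch. They ran from 963 bp to 13166 bp, and 3 were wider than 10 kb. The widest, on IV from 16645157 to 16658322, stood between stretches of 139 kb on either side and met 5 series-wide peaks. In all, 27 were in both replicates (52.9%), 20 in replicate 2 alone and 4 in replicate 1 alone. Series-wide peaks met 47 of the 51. The other 4 lay on V (3) and X (1).

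The series-wide list left 614 peaks in the stretches, 600 of them wholly inside and 14 reaching over an end. They covered 225 kb, or 0.691% of the stretches' bases, against 1.55% of the bases of the 5424 shorter intervals. Per Mb there were 18.4 wholly inside the stretches and 51.6 in the shorter intervals. Among the latter, those of 10 to 50 kb had 33.0 per Mb and 1.04% of their bases covered. Those up to 10 kb had 127 per Mb and 3.65%. The contrast was thus smaller with the intervals nearer in length. Of the stretches 157 (40.4%), with 12.2 Mb, held none, 91 held 1, 62 held 2, 62 held 3 to 5 and 17 held more than 5. The shorter intervals were empty more often, 71.9% of the 5424 and 61.4% of those of 10 to 50 kb, although their density per Mb was higher. A shorter interval has fewer bases in which a peak can fall, so the share of empty intervals depends on length. In 331 stretches (85.1%) these peaks covered less than 1% of the bases. The long intervals of replicate 2 alone held 1266 series-wide peaks and those of replicate 1 alone 2800, with 139 and 45 that held none.

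These peaks were as narrow as the series-wide peaks left between replicate peaks elsewhere. Their median width was 233 bp (interquartile range 178 to 327 bp), against 222 bp (173 to 301 bp) in the shorter intervals. With the series-wide peaks taken as dividers too, 295 of the 389 stretches (75.8%) still had a piece over 50 kb, and 94 did not. The longest such piece was the 275 kb stretch at the left end of V.

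The 5 longest stretches with no series-wide peak lay on V and III. After the 275 kb stretch on V came another on V from 3259351 to 3440003 (181 kb), 1 on V from 2708109 to 2875090 (167 kb), 1 in the centre of V from 6901968 to 7057677 (156 kb) and 1 on III from 1627231 to 1778151 (151 kb). The central one on V was closed by peaks of both replicates, 4245 bp and 7176 bp wide, and measured 157 kb and 156 kb in the replicates alone. It was the member of the 5 whose ends depended least on 1 replicate.

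Series-wide peaks lay more densely towards the ends of the stretches. By midpoint, there were 58.5 per Mb within 2 kb of an end, 33.0 from 2 to 5 kb, 22.9 from 5 to 10 kb, 16.2 from 10 to 25 kb and 11.8 beyond 25 kb. The outermost 2 kb held 91 of the 600 peaks (15.2%), and the parts more than 25 kb from an end held 154 (25.7%). The inner parts of the stretches were thus the sparsest by this list. The series-wide list is not independent of the replicate lists that set the ends, and the part of this in the gradient was not tested.

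**Figure D5:**
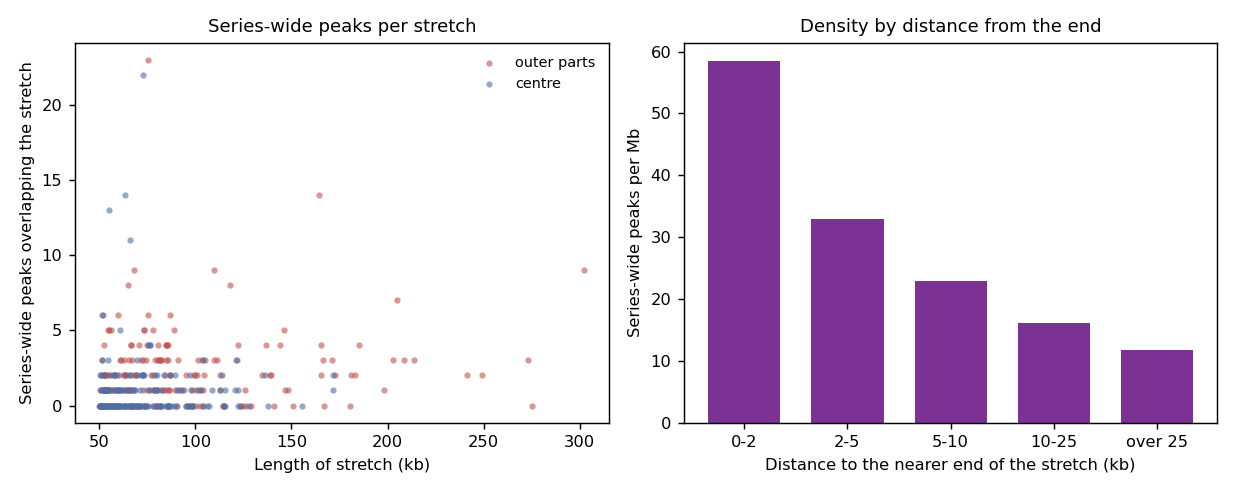
Left, number of series-wide peaks in each stretch against its length in kb, for outer parts (red) and centres (blue); right, series-wide peaks wholly inside stretches per Mb, by distance in kb to the nearer end. The highest counts on the left are 23 and 22, in stretches of 75.1 and 73.0 kb, and the density on the right runs down from 58.5 to 11.8 per Mb.

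Stretches in the centres of chromosomes were more often empty in the series-wide list than those in the outer parts. In the outer parts 52 of 201 held no series-wide peak (25.9%, exact 95% interval 20.0 to 32.5%), and in the centres 105 of 188 (55.9%, 48.4 to 63.1%). The difference had the same sign on each of the 6 chromosomes, from 36.1% in the outer parts and 54.7% in the centre of V to 18.4% and 58.3% on IV. Outer stretches were longer, but the order was kept at like lengths: among stretches of 50 to 75 kb, 28.9% of 90 outer and 57.7% of 123 central ones were empty, and among those over 100 kb, 24.1% of 58 outer and 45.8% of 24 central ones.

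The same order was seen in the shorter intervals, so it is not particular to the long ones. Of intervals of 10 to 50 kb, 51.3% of 715 in the outer parts and 69.8% of 857 in the centres held no series-wide peak. Wholly inside them there were 44.4 peaks per Mb in the outer parts and 23.0 in the centres. In the stretches the densities were 21.9 and 13.7 per Mb. On I and III, however, the central stretches had the higher density, with 29.1 per Mb in the outer parts and 38.1 in the centre of I, and 20.5 and 49.5 on III. That order rested on 2 central stretches of each, described next: without them, a choice made after the values were seen, the density was 16.9 per Mb in the centre of I and 6.57 in that of III, below their outer parts.

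A few central stretches of I and III, with 2 others, stood out by the share of their bases under series-wide peaks. In 6 stretches series-wide peaks covered over 5% of the bases. These 6 held 89 of the 614 peaks (14.5%) but 73.1 kb of the bases under them (32.5%), and 20 of the 33 peaks wider than 1 kb that lay wholly inside. Over the other 383 stretches the peaks covered 0.473% of the bases. The 6 were singled out after their values were seen.

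The most covered stretch lay on I from 9588518 to 9652019 (63.5 kb). It held 14 series-wide peaks over 32.1% of its bases, the widest of 4560 bp, yet neither replicate list had a peak there. The stretch on III from 6798409 to 6864348 (65.9 kb) held 11 peaks over 26.8% of its bases. Among them was the widest series-wide peak inside any stretch, of 4815 bp, from 6837294 to 6842108. Its bounding peaks were both in replicate 2 alone, and in replicate 1 alone the interval measured 140 kb.

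The stretch on IV from 3033259 to 3108384 (75.1 kb) held 23 series-wide peaks, more than any other stretch, over 20.9% of its bases. Next by number was that on III from 7576152 to 7649111 (73.0 kb), with 22 peaks over 10.2%. Level with the 14 on I was a stretch on X outside these 6, from 150462 to 314573 (164 kb), with 14 peaks over 4.13%. The remaining 2 of the 6 were on I from 10235824 to 10290651 (54.8 kb, 13 peaks over 10.7%) and on X from 62025 to 148643 (86.6 kb, 6 peaks over 6.86%). In these 6, the longest piece free of series-wide peaks was 20.1 to 47.3 kb, so that none stayed over 50 kb when that list was added. They are stretches without replicate peaks by the rule, and the series-wide list does not show them as empty.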

How the data were processed

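Chromatin of early embryos was crosslinked, sonicated and precipitated with 8WG16, per the labels' protocols. BWA was used for alignment to ce10, per the submitters' processing notes. The build is WormBase WS220, per the file headers. The authors deposited a peak list per precipitated sample, from a caller named MACS, and one for the series, from MACS v2; both names are per the file headers and source column. The sources used here do not state read filters, the control or how the series-wide list combined the replicates. Only the first and last base of each deposited peak were used, never the score.

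Peaks that overlapped or touched were merged with Python 3.11.15, numpy 2.4.6 and pandas 2.3.3. Exact (Clopper-Pearson) 95% intervals came from scipy 1.17.1 and figures from matplotlib 3.10.9. Chromosome length was the last listed peak end. Overlap meant at least 1 bp. The 13 mitochondrial peaks were set aside. The interval functions were tested on simulated lists. No test between groups was made.

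The stretches and the rules were chosen with earlier results of these data known. Stretches were named by rule: the 10 longest, the longest of each chromosome, 3 on either side of the threshold, the runs of 3 or more, the 3 with most series-wide peaks, the 5 longest without any, and the one with the widest.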

Additional observations from a re-analysis of the deposited data

How the results depend on the processing

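In all, 7 results were recomputed under 10 other settings, which gave 51 values. Of these, 34 stayed within the limits used (1.5 times for counts, the spread between replicates or the exact interval otherwise). The limits are wide, and that for length, 9.07 Mb, is the standard deviation of 2 values. Within them fell 575 stretches with 40.9 Mb at a threshold of 40 kb, against 389 with 32.5 Mb. So did 534 stretches without replicate 2, and 24.3 Mb with the series-wide peaks added as dividers. A threshold of 75 kb left 176 stretches with 19.6 Mb, 36.9% of them in the centres and 56.2% on V and X; 34 shared a bounding peak, 319 series-wide peaks lay inside and 60 stretches held none. A threshold of 40 kb gave 174 stretches that shared a bounding peak and 250 without series-wide peaks. Leaving out 1 replicate gave 36.0 to 48.8 Mb, 45.5 to 48.6% on V and X, 108 to 155 stretches sharing a bounding peak, 1266 to 2800 series-wide peaks inside and 45 to 139 stretches without any. The lower count of 1266 is without replicate 1 and the higher of 2800 without replicate 2. With fewer dividing peaks the long intervals take up more bases, so more series-wide peaks can lie inside, by construction. Which replicate a series-wide peak came from is not known. Adding the series-wide peaks as dividers left 310 stretches, of which 52 shared a bounding peak. With a narrower centre, from 33.3% to 66.7% of a chromosome, 29.6% of stretches were central, fewer by construction. No paired analysis was possible because the values come from no test and the input samples have no list here. Depth is unknown, so no limit from it can be given.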
